A study of Zea mays and Oryza sativa with 119 samples.

Results

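Section 2 of the third leaf of rice was compared with section 1, the first 2 of 11 consecutive pieces of 2 cm into which the leaf was cut. The comparison rests on 8 of the 119 libraries of a series on maize and rice leaves, 4 of section 1 and 4 of section 2. All 8 came from seedlings, with no treatment named in the labels, of the cultivar Nipponbare at 14 days, and each replicate was a pool of 15 plants on average. Polyadenylated RNA was sequenced, and the values are FPKM, which scale the fragments of a gene by its transcript length and by the fragments mapped in the library. The labels do not say which end of the leaf section 1 is, or whether a piece held sheath as well as blade. A 2 cm piece holds every cell type of the leaf at that position, so fewer cells of a type and less RNA per cell cannot be told apart.

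Grass leaves are generally known to grow from a zone at their base, where cells divide and then lengthen. Cells leaving that zone lay down the cuticle and the thickened walls of vessels and fibres, and their plastids turn into photosynthetic chloroplasts. A series of pieces along such a leaf is therefore commonly read as a series of developmental stages. Expansins loosen the wall during growth, aquaporins carry water across membranes, and sucrose synthase and invertases split imported sucrose in tissue that takes up sugar. Green tissue fixes carbon through Rubisco, and in a C3 grass such as rice it recycles the product of Rubisco's reaction with oxygen through photorespiration.

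Of the 55986 features of the rice table, 17789 had a mean FPKM of at least 1 in the 8 libraries and were tested with limma on log2(FPKM + 1). A gene is said to have risen or fallen where its Benjamini-Hochberg adjusted p over all tested genes was under 0.05 and its change was at least 1 on that log2 scale. All changes below are section 2 minus section 1 on that scale, which understates the change of genes with low FPKM. Where a gene that fell had a section 2 mean under 1 FPKM, it passed the filter only through section 1. The test and the group separation of such a gene are given as a description. Values per library are FPKM, always given for replicates 1, 2, 3 and 4 in that order. The rice identifiers are not named in the files. Gene names here come from lists of 402 identifiers written from general knowledge of rice, of which 401 matched the table and 327 were tested, so each name rests on that pairing.

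The 8 libraries had FPKM sums of 462278 to 580521. Depth, read from the steps of low values, was 0.914 to 1.42 times that of section 1 replicate 1. Between 3.24% and 3.96% of the tested genes were listed at 0 in each section 1 library, and between 5.00% and 6.87% in each section 2 library. Section 2 replicate 1 stood apart from its group. Across genes, it correlated better with the section 3 profile (r = 0.937) than with the section 2 profile (r = 0.920), while the other 7 libraries matched their own section best. Markers of green tissue, which do not tell blade from sheath, were high in every library. The summed FPKM of the 12 listed Rubisco small subunit and LHCB genes was 14800 to 29500 in section 1 and 44100 to 56500 in section 2. Of the 5 listed class I KNOX genes, which mark the meristem, 4 were at 0 in all section 1 libraries, where the sum reached 0.763 at most, and all 5 were at 0 in section 2. The 4 root markers summed to 0 to 0.772 in section 1 and 0.828 to 2.18 in section 2, with 3 of the 4 at 0 in all libraries of each section. Those 4 KNOX genes, and 2 of the root markers, were at 0 in all 44 rice libraries. Their 0 values therefore do not tell whether meristem or root was present.

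More genes fell than rose between section 1 and section 2. In all, 1041 genes rose, which is 5.85% of those tested, and 2142 fell, which is 12.0%. Without section 2 replicate 1 the counts were 906 and 1872. The split depended on scaling, since after quantile normalization 1647 genes rose and 2015 fell, so that the share of calls that fell was 55.0% in place of 67.3%. That normalization moved the median change of all genes from -0.06 to 0.11. The larger changes were mostly losses, with 191 genes that fell by at least 3 on the log2 scale and 14 that rose by as much. Among the genes that fell, 141 were listed at 0 in all 4 section 2 libraries, and 19 of those that rose were listed at 0 in all 4 section 1 libraries. The libraries of the 2 sections did not overlap for 2677 of the 3183 called genes. Across all tested genes, 29.7% did not overlap, 12.6% being higher and 17.1% lower in section 2.

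**Figure D1:**
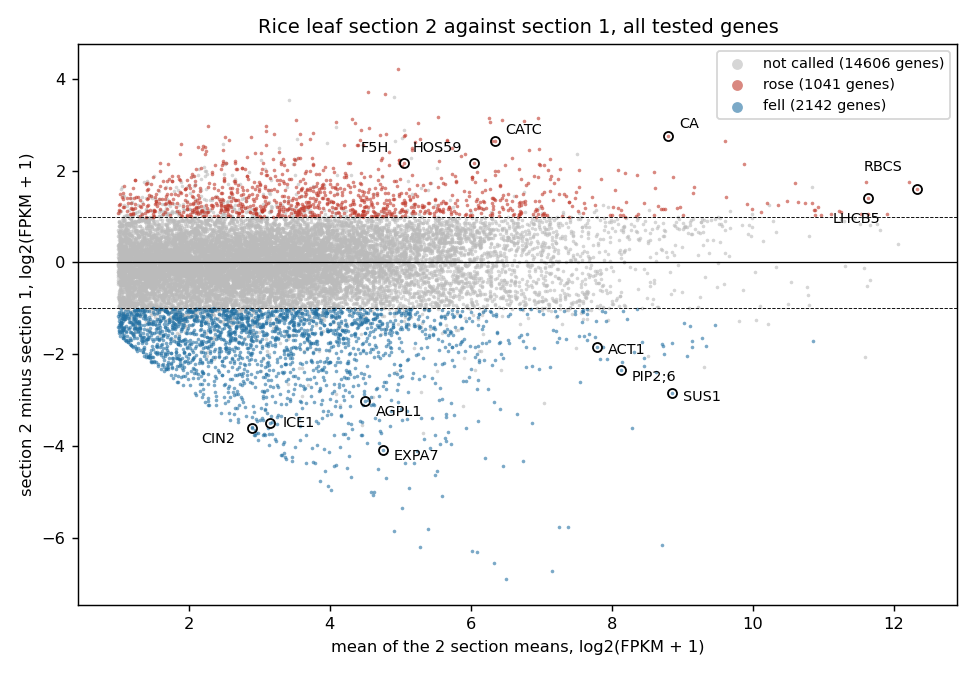
Change between rice leaf sections 1 and 2 for the 17789 tested genes (vertical axis, section 2 minus section 1 in log2(FPKM + 1)) against their level (horizontal axis, log2 of the mean FPKM of the 2 sections plus 1). Each point is a gene, red for the 1041 that rose and blue for the 2142 that fell, dashed lines mark a change of 1 either way, and circled genes are named; the sloping lower edge at low levels holds genes at or near 0 in section 2.

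The 35 lists followed themes of leaf development. Of their 327 tested members 79 rose and 55 fell, beside 5.85% and 12.0% of all tested genes. The same shares stand beside each list count below, and 29.7% beside counts of groups that did not overlap. Among the lists with at least 3 tested members, mitosis, DNA replication, expansins and aquaporins had the lowest medians, and photorespiration, the Calvin-Benson cycle, light harvesting and the photosystems the highest, beside a median of -0.06 over all genes. This order depended on scaling. Under quantile normalization the KNOX (1.18) and nitrate (1.02) lists lay above light harvesting (0.83) and the photosystems (0.67). The photosystems also lay below the lists of C4 enzyme relatives, carotenoids, chlorophyll synthesis, clock and light receptors, at 0.73 to 0.81. At the low end a list of reference genes (-1.14) lay below expansins (-1.11) and DNA replication (-0.925).

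**Figure D2:**
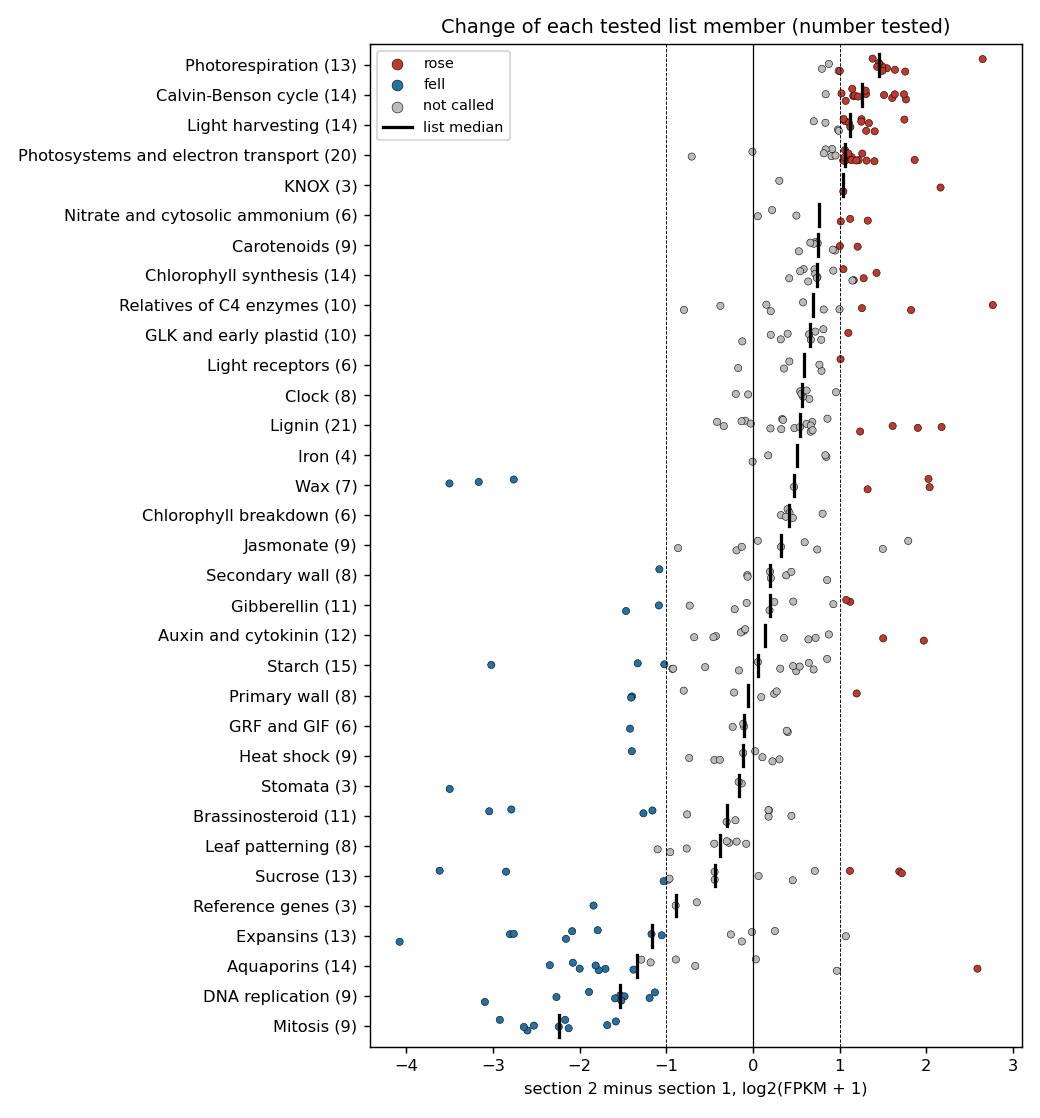
Change of every tested list member between sections 1 and 2 (horizontal axis, log2(FPKM + 1)), 1 row per list with at least 3 tested members, ordered by the list median (black bar). Red points rose, blue points fell and grey points were not called; all 9 tested mitosis genes lie left of -1 and all 13 photorespiration genes lie right of 0.

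Cell division genes that were tested fell. The 9 tested members of the mitosis list fell, with a median change of -2.24, and so did the 9 of the DNA replication list, with a median of -1.53. The mean of each of these 18 genes in section 2 was under 1 FPKM, so they passed the filter on low values only through section 1. Their count, their median, their tests and the separation of their groups, here and below, are therefore given as a description. The counts were the same without section 2 replicate 1. Without section 1 replicate 1, 9 mitosis genes and 7 replication genes fell, and without replicate 1 in all sections 9 and 8. Another 2 mitosis genes and 3 replication genes lay below the filter and were not tested. Of these CDC6 (LOC_Os01g63710), a licensing factor of replication origins, had 1.29, 0.706, 0.589 and 0.853 FPKM in section 1 and 0.734, 0.6, 0.917 and 0.322 in section 2, with overlapping groups, and CYCA1;1 (LOC_Os01g13260) overlapped too. Under quantile normalization 8 of the 9 mitosis genes and 4 of the 9 replication genes still fell by at least 1. The 11 listed mitosis genes summed to 37.2 to 64.0 FPKM in section 1 and 1.33 to 2.82 in section 2.

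CYCB1;1 (LOC_Os01g59120), a B-type cyclin that drives entry into mitosis, had 6.46, 3.72, 5.26 and 5.19 FPKM in section 1 and was listed at 0 in all 4 section 2 libraries. All 5 tested A- and B-type cyclins fell by 1.58 to 2.60. CDKB2;1 (LOC_Os08g40170), a cyclin-dependent kinase of dividing plant cells, had 15.3, 5.96, 8.92 and 6.00 FPKM in section 1 and 0, 0.525, 0 and 0.563 in section 2, a change of -2.92 (SE 0.233, adjusted p = 7.56e-13). The section 1 values all stood above those of section 2, and replicate 1 was the highest of them. CDKB1;1 (LOC_Os01g67160), of the same kinase family, had 6.87, 7.36, 3.51 and 5.30 FPKM and then 0.684, 0, 0 and 0, so that section 2 replicate 1 alone was above 0. AUR1 (LOC_Os01g09580), an Aurora kinase of the spindle, went from 8.10, 4.69, 9.96 and 4.72 FPKM to 0, 0.452, 0.461 and 0, a change of -2.65 (SE 0.245, adjusted p = 3.98e-11).

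In the replication list, PCNA (LOC_Os02g56130), the sliding clamp of DNA polymerase, had 27.8, 4.30, 14.3 and 12.0 FPKM in section 1 and 0.62, 0.506, 0.516 and 0.542 in section 2, a change of -3.10 (SE 0.479, adjusted p = 3.34e-06). Its section 1 values spanned a wide range, with replicate 2 lowest and replicate 1 highest, while the section 2 values were close together and all lower. TOP2 (LOC_Os02g47150), the type II topoisomerase that untangles replicated DNA, had 6.89, 2.65, 5.08 and 3.17 FPKM and then 0, 0, 0.106 and 0.223, a change of -2.27 (SE 0.17, adjusted p = 1.26e-13). The 5 tested MCM genes encode subunits of the replicative helicase, and all fell. MCM3 (LOC_Os05g39850) had 4.52, 1.20, 3.51 and 3.23 FPKM in section 1 and 0, 0, 0.216 and 0 in section 2, and MCM4 (LOC_Os01g36390) had 3.11, 0.935, 2.65 and 2.45 and then 0, 0, 0 and 0.212. The change of MCM4 was -1.59, and under quantile normalization -0.93, short of the size set for a call.

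Of the 6 tested growth-regulating factors and their cofactors, beside 17.9% of all genes called either way, only GRF10 (LOC_Os02g45570) fell, from 1.98, 1.11, 2.78 and 2.45 FPKM to 0, 0, 0.6 and 0, a change of -1.42 (SE 0.168, adjusted p = 1.62e-08) that shrank to -0.74 under quantile normalization, short of a call. GRF10 passed the filter only through section 1, so its test is given as a description. GRF11 (LOC_Os07g28430) and GIF2 (LOC_Os11g40100) had the highest levels of this list, at 15.5 ± 2.43 and 20.7 ± 9.12 FPKM (SD, n = 4) in section 1 and 14.5 ± 3.5 and 25.4 ± 2.24 in section 2, and their groups overlapped. GRF3, GRF5 and GIF3 were not called either, with changes of -0.24, 0.40 and -0.11.

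None of the 8 tested leaf patterning genes was called by limma, beside 17.9% of all tested genes. All 8 were lower in section 2, 3 of them at an unadjusted p under 0.05. YAB1 (LOC_Os07g06620) and YAB2 (LOC_Os03g44710), YABBY transcription factors, had section 1 means of 30.4 and 30.5 FPKM and section 2 means of 24.6 and 17.8. LG1 (LOC_Os04g56170), the SBP-box factor needed for the ligule between sheath and blade, had 4.52, 3.04, 3.60 and 7.41 FPKM and then 3.63, 0, 1.92 and 2.02, a change of -1.10 (SE 0.471, adjusted p = 0.0787). Its change passed the test with the replicate number as a block in the 8 libraries (adjusted p = 0.0442) and without section 2 replicate 1 (adjusted p = 0.0395). SCR2 (LOC_Os12g02870), a SCARECROW factor of the GRAS family, changed by -0.96 (SE 0.253, adjusted p = 0.00379), just short of the size set. It passed that size in 7 alternatives, such as without section 1 replicate 3, at -1.20, and with a pseudocount of 0.5, at -1.25. SHR2, DL, NAL1 and ADL1 changed by -0.45, -0.28, -0.08 and -0.19, and their groups overlapped.

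The tested KNOX genes were all of class II, which is not tied to the meristem. HOS59 (LOC_Os06g43860) had 40.9, 31.0, 10.4 and 18.2 FPKM in section 1 and 133, 116, 75.2 and 98.7 in section 2, a change of 2.16 (SE 0.254, adjusted p = 1.26e-08). Every section 2 library was above every section 1 library, and in both sections replicate 1 was highest and replicate 3 lowest. HOS58 (LOC_Os08g19650) had 16.9, 12.8, 9.29 and 12.0 FPKM and then 37.4, 28.7, 17.9 and 26.5, a change of 1.04 (SE 0.177, adjusted p = 1.52e-05), which was 0.89 without section 2 replicate 1 and 0.91 without section 1 replicate 3. HOS66 (LOC_Os02g08544) did not change beyond the threshold, at 47.7 ± 8.84 and 58.4 ± 4.24 FPKM (SD, n = 4).

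Of the 3 tested stomatal genes, ICE1 (LOC_Os11g32100), a bHLH factor of stomatal development and the cold response, fell from 13.1, 12.5, 16.1 and 19.7 FPKM to 0, 0.301, 0.92 and 0.644. This was a change of -3.5 (SE 0.161, adjusted p = 6.8e-20), in 4 of 4 pairs, with no overlap. The section 2 mean of ICE1 was under 1 FPKM, so it passed the filter only through section 1, and these values are a description. Its relative ICE2 (LOC_Os01g70310) had 9.60, 7.72, 10.1 and 11.5 FPKM and then 4.30, 9.15, 10.3 and 12.3, with overlapping groups and a change of -0.17, or 0.11 without section 2 replicate 1. FAMA (LOC_Os05g50900), which acts late in the guard cell lineage, was low in both, with means of 2.04 and 1.85. Both genes were lower in section 2 in the pair of replicate 1, by 1.0 and 1.5 on the log2 scale, and higher in the other 3 pairs.

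Most of the called wall loosening and water transport genes fell. Of 13 tested expansins 8 fell and none rose, with a median change of -1.17, and 7 fell without section 2 replicate 1. Under quantile normalization 7 fell and 1 rose, and 1 also rose with the replicate number as a block. The 6 alpha-expansins had a median change of -1.48, with 5 that fell, and the 7 beta-expansins a median of -0.26, with 3 that fell. EXPA7 (LOC_Os03g60720) had 29.1, 39.7, 55.0 and 76.1 FPKM in section 1 and 0.897, 2.19, 2.61 and 1.96 in section 2, a change of -4.08 (SE 0.215, adjusted p = 4.47e-18). EXPA4 (LOC_Os05g39990) went from 21.1, 32.9, 38.7 and 56.7 FPKM to 0.563, 5.51, 7.96 and 6.89, a change of -2.81 (SE 0.574, adjusted p = 0.000229). Neither gene's groups overlapped, and both were lowest in replicate 1 of each section.

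EXPB4 (LOC_Os10g40730) had 84.9, 63.1, 119.9 and 191 FPKM and then 2.72, 18.1, 26.4 and 30.1, a change of -2.76, or -2.07 without section 2 replicate 1. EXPB11 (LOC_Os02g44108) had 10.9, 23.3, 31.3 and 33.2 FPKM and then 0.542, 6.62, 8.56 and 6.15, a change of -2.16, or -1.56 without that library. EXPB3 (LOC_Os10g40720), the expansin with the highest mean, had 154, 236, 225 and 199 FPKM in section 1 and 71.0, 213, 317 and 235 in section 2. Its groups overlapped and its change of -0.13 did not pass the test (adjusted p = 0.86).

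Among 14 tested aquaporins 7 fell and 1 rose, with a median change of -1.34. In all, 3 of the 14 were higher in section 2, and 2 rose without replicate 1. The 10 plasma membrane members held 5 that fell and the 1 that rose, and 2 of the 4 tonoplast members fell. Together the 14 genes made up 0.868% ± 0.254 of the FPKM sum in section 1 and 0.254% ± 0.0401 in section 2 (SD, n = 4). PIP1;2 (LOC_Os04g47220) had 646, 734, 805 and 1303 FPKM and then 237, 275, 278 and 239.8, a change of -1.70 (SE 0.193, adjusted p = 5.57e-09). PIP2;1 (LOC_Os07g26690) went from 637, 632, 632 and 841 FPKM to 159, 199, 129.6 and 200.5, and PIP2;6 (LOC_Os04g16450) from 289, 331, 599 and 658 to 52.0, 86.6, 106 and 114, changes of -2.0 and -2.35. These 3 plasma membrane channels did not overlap between sections. PIP2;5 (LOC_Os07g26660) changed by -2.08 (SE 0.791, adjusted p = 0.0459) with overlapping groups, and its call was lost without section 2 replicate 1 (adjusted p = 0.0894) and in 12 other alternatives.

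PIP2;7 (LOC_Os09g36930) was the 1 aquaporin that rose, from 4.26, 2.24, 0.374 and 0 FPKM to 54.8, 16.6, 2.42 and 8.14. Each pair was higher in section 2, but replicate 3 of section 2 lay below replicate 1 of section 1. Its change was 2.59 (SE 0.602, adjusted p = 0.00104), falling to 1.90 without section 2 replicate 1 and reaching 3.24 without section 2 replicate 3. The silicon transporter Lsi6 (LOC_Os06g12310), which unloads silicon from the xylem, also rose, from 44.7, 43.6, 15.6 and 26.3 FPKM to 62.5, 77.8, 60.0 and 77.5. Its groups did not overlap, and its change of 1.18 was 0.87 without section 1 replicate 3.

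Wall synthesis genes were called in both directions. Of the 8 primary wall genes, all tested, 1 rose and 2 fell, beside 5.85% and 12.0% of all tested genes. CESA3 (LOC_Os07g24190), a subunit of cellulose synthase, rose from 230.1, 216, 90.1 and 145 FPKM to 369, 469, 286 and 368, a change of 1.20 that was 0.92 without section 1 replicate 3. CESA5 (LOC_Os03g62090), another subunit, fell from 56.4, 72.7, 53.3 and 73.0 FPKM to 19.8, 25.6, 22.5 and 26.2, a change of -1.40 (SE 0.352, adjusted p = 0.00237). KOR1 (LOC_Os03g21210), a membrane endoglucanase needed for cellulose synthesis, fell from 35.3, 29.9, 37.4 and 42.5 FPKM to 9.80, 11.5, 13.0 and 19.0, a change of -1.41 (SE 0.318, adjusted p = 0.00075). CESA1 (LOC_Os05g08370) had means of 271 and 287 FPKM, with overlapping groups. The groups of each of the 3 called genes did not overlap.

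The 3 cellulose synthases of secondary walls were not called, with changes of 0.20 to 0.38. In the secondary wall list MYB46 (LOC_Os12g33070), a transcription factor of secondary wall synthesis, fell from 1.16, 1.95, 2.84 and 2.94 FPKM to 0, 1.03, 0.526 and 0.553, by 1.08 on the log2 scale, and its call was lost without section 2 replicate 1 (-0.89) and in 5 other alternatives. MYB46 also passed the filter only through section 1, so its call is given as a description. BC15 (LOC_Os09g32080), a chitinase-like wall protein, had the highest level there at 143 ± 29.4 and 136 ± 25.6 FPKM (SD, n = 4).

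Of 21 tested lignin genes 4 rose and none fell, beside 5.85% and 12.0% of all tested genes. F5H (LOC_Os10g36848), which directs the pathway to syringyl lignin, rose from 24.9, 15.3, 3.68 and 7.05 FPKM to 50.6, 53.8, 32.8 and 68.6, a change of 2.18 (SE 0.445, adjusted p = 0.000227). 4CL2 (LOC_Os02g46970), a 4-coumarate:CoA ligase, rose from 6.71, 3.06, 0.982 and 1.42 FPKM to 12.5, 16.0, 9.66 and 11.0, a change of 1.90 (SE 0.313, adjusted p = 9.2e-06). A cinnamoyl-CoA reductase gene (LOC_Os09g25150) had 83.5, 45.1, 17.9 and 22.8 FPKM and then 119, 100.2, 98.7 and 125, and for these 3 genes the groups did not overlap. The second such reductase (LOC_Os08g34280) overlapped and lost its call without replicate 2 (adjusted p = 0.0746) or replicate 4 (adjusted p = 0.0815).

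The 7 tested wax genes split, with 3 that rose and 3 that fell. WSL1 (LOC_Os06g39750), an elongase of very-long-chain fatty acids, fell from 103, 100.4, 128 and 185 FPKM to 6.42, 16.5, 24.2 and 35.7, a change of -2.76 (SE 0.37, adjusted p = 2.23e-07). WR1 (LOC_Os02g10760), a transcription factor that promotes wax synthesis, fell from 15.9, 19.8, 62.7 and 37.9 FPKM to 0, 2.02, 2.75 and 3.62, a change of -3.5 (SE 0.466, adjusted p = 1.94e-07). GL1-4 (LOC_Os02g40784) fell from 12.6, 11.2, 14.6 and 16.3 FPKM to 0.602, 0.491, 0.25 and 1.31, a change of -3.17 (SE 0.274, adjusted p = 6.47e-12). The section 1 libraries lay above those of section 2 for all 3. GL1-4 had a section 2 mean under 1 FPKM, so its test and separation are given as a description.

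Other members of the same GL1 family, whose maize relative GLOSSY1 is needed for leaf wax, went the other way. GL1-1 (LOC_Os09g25850) had 178, 97.9, 23.5 and 44.7 FPKM in section 1 and 172, 267, 301 and 388 in section 2, a change of 2.03 (SE 0.428, adjusted p = 0.000348). GL1-6 (LOC_Os02g56920) had 86.5, 54.4, 15.0 and 20.5 FPKM and then 74.6, 142, 191 and 228, a change of 2.04 (SE 0.494, adjusted p = 0.0016). Both were higher in section 2 in 3 of 4 pairs, and in replicate 1 slightly lower, so the groups overlapped. Without replicate 1 the changes were 2.72 and 2.79, and the call of GL1-6 was lost without replicate 3 (adjusted p = 0.0872) or replicate 4 (adjusted p = 0.0569). WSL4 (LOC_Os03g12030), a second elongase, had means of 97.3 ± 44.5 and 236 ± 98.3 FPKM (SD, n = 4), a change of 1.32 (SE 0.438, adjusted p = 0.0205). Its call was lost without section 1 replicate 3 (adjusted p = 0.141), without section 2 replicate 4 (adjusted p = 0.0884) and with the replicate block in the 8 libraries (adjusted p = 0.0504).

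**Figure D3:**
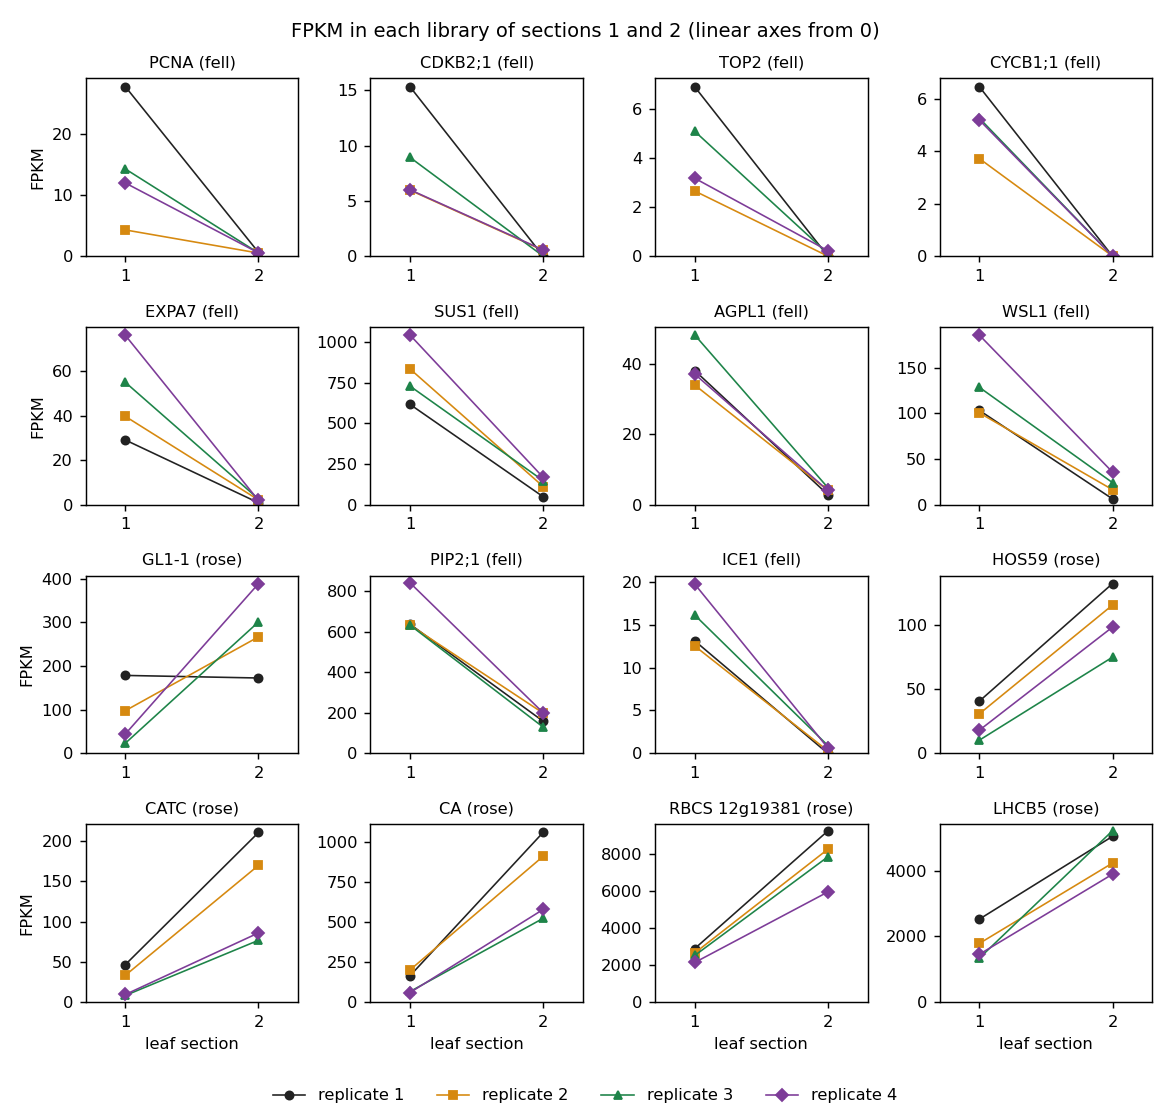
FPKM of 16 named genes in each library of sections 1 and 2 (vertical axes, linear from 0; lines join libraries with the same replicate number). Cell division genes end near 0 in section 2 in every replicate, GL1-1 is higher in section 2 in 3 of 4 replicates, and CATC, CA and HOS59 keep replicates 1 and 2 above 3 and 4 in both sections.

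Most of the tested photosynthesis genes were higher in section 2 than in section 1. The light-harvesting, photosystem and Calvin-Benson lists, 48 tested genes, took 12.5%, 10.6%, 7.92% and 8.97% of the FPKM sum in the section 1 libraries and 22.4%, 21.1%, 17.8% and 18.1% in section 2. The means were 9.98% ± 1.98 and 19.8% ± 2.26 (SD, n = 4), with no overlap. Members of these lists are near-identical in part, so the split of reads between copies is uncertain, and 2 listed photosystem genes, PsaG and PsbY, were at 0 in all 44 rice libraries.

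In the light-harvesting list 10 of 14 genes rose and none fell, with a median change of 1.11, and 13 passed the adjusted p at any size, as did 27.7% of all tested genes, 11.6% being higher and 16.1% lower. The 8 photosystem II antenna genes changed by 0.70 to 1.75 and the 6 of photosystem I by 0.99 to 1.34. LHCB5 (LOC_Os11g13890), an inner antenna of photosystem II, had 2529.5, 1789.5, 1343 and 1458 FPKM and then 5051, 4237, 5223 and 3898, a change of 1.40 (SE 0.23, adjusted p = 8.89e-06). An LHCB1 gene (LOC_Os01g52240) of the main antenna had 2379, 1691, 708 and 1252 FPKM and then 6177, 5407, 3649.6 and 3723, a change of 1.75 (SE 0.389, adjusted p = 0.00065). The groups of these 2 genes did not overlap. LHCB6 (LOC_Os04g38410) and LHCA2 (LOC_Os07g38960) rose by 1.31 and 1.34. A second LHCB1 gene (LOC_Os01g41710), with the highest mean of the list, changed by 1.06, and lost its call without section 2 replicate 1 (adjusted p = 0.0668) and in 5 other alternatives.

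Among 20 tested genes of the photosystems and electron transport 13 rose and none fell, with a median change of 1.06. Without section 2 replicate 1, 11 rose. Under quantile normalization the light-harvesting list had 7 and this list 6 that rose, and none fell. PsbS2 (LOC_Os04g59440) had 208, 193.5, 228 and 277 FPKM and then 117, 147.5, 168 and 122, lower in section 2 with no overlap, and its change of -0.71 passed the adjusted p (0.0128) but not the size. PsbS1 (LOC_Os01g64960), the sensor of photoprotective quenching, had 339.6, 238, 136 and 131 FPKM and then 874, 804, 543 and 679, a change of 1.87 (SE 0.222, adjusted p = 1.83e-08). PsaH (LOC_Os05g48630), a photosystem I subunit, had 1269, 842, 705 and 868 FPKM and then 2431, 2235, 2868 and 1591, a change of 1.31 (SE 0.214, adjusted p = 8.08e-06). Both ferredoxin-NADP reductase genes rose, LOC_Os02g01340 by 1.40 and LOC_Os06g01850 by 1.26. Ferredoxin Fd1 (LOC_Os08g01380) had the highest mean, 2346 ± 445 and then 4160.0 ± 922 FPKM (SD, n = 4), and its change of 0.82 passed the adjusted p but not the size.

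In the Calvin-Benson list 13 of 14 genes rose, with a median change of 1.26, and 13 also rose under quantile normalization. The 3 Rubisco small subunit genes changed by 1.61 to 1.77. LOC_Os12g19381 had 2885, 2649, 2513 and 2135 FPKM and then 9227, 8239.8, 7829.9 and 5936, a change of 1.61 (SE 0.269, adjusted p = 1.26e-05). LOC_Os12g17600 had 3043, 2864, 1364 and 1768 FPKM and then 7695, 7869, 7134 and 6501, and RCA (LOC_Os11g47970), the activase that frees Rubisco of blocking sugars, had 1089, 800.0, 457 and 594 and then 3048, 2594, 1922 and 1959. All 4 section 2 libraries exceeded all 4 of section 1 for each of these genes.

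The photorespiration list had the highest median change of the lists with at least 3 tested genes. Of 13 tested 10 rose, with a median of 1.45. The groups did not overlap for any of the 13, beside 29.7% of all tested genes. CATC (LOC_Os03g03910), the catalase that removes peroxisomal hydrogen peroxide, had 46.6, 33.3, 8.24 and 9.43 FPKM and then 211, 169.8, 76.7 and 85.9, a change of 2.65 (SE 0.4, adjusted p = 2.15e-06). Replicates 1 and 2 were above 3 and 4 in both sections. GLYK (LOC_Os01g48990), glycerate kinase, closes the cycle in the chloroplast and went from 46.8, 30.3, 24.9 and 19.6 FPKM to 108, 106, 108 and 80.2, a change of 1.76 (SE 0.198, adjusted p = 4.93e-09). SGAT (LOC_Os08g39300), an aminotransferase of the peroxisome, changed by 1.64, PGLP (LOC_Os04g41340), the phosphatase of the first step, by 1.55, and GS2 (LOC_Os04g56400), the glutamine synthetase that recaptures ammonium in the chloroplast, by 1.43.

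Rice relatives of the C4 cycle enzymes were not uniform, with 3 of 10 that rose and none that fell. A carbonic anhydrase, CA (LOC_Os01g45274), which converts carbon dioxide to bicarbonate, had 165, 201, 65.9 and 59.6 FPKM and then 1057, 908, 522 and 577, a change of 2.77 (SE 0.358, adjusted p = 1.07e-07). PPDKB (LOC_Os05g33570), a pyruvate phosphate dikinase, had 18.1, 19.9, 8.79 and 6.46 FPKM and then 72.6, 60.7, 26.9 and 35.1, a change of 1.82 (SE 0.253, adjusted p = 4.41e-07). A phosphoenolpyruvate carboxylase gene (LOC_Os08g27840) had 50.8, 50.7, 27.6 and 33.2 FPKM and then 93.6, 98.5, 94.5 and 93.8, a change of 1.26 (SE 0.145, adjusted p = 8.42e-09). No groups overlapped for these 3. In the nitrate list 3 of 6 genes rose, and 1 did without section 2 replicate 1. NiR1 (LOC_Os01g25484), nitrite reductase, was that gene, with 152, 83.5, 66.8 and 88.9 FPKM and then 267, 231, 220.5 and 225, a change of 1.32 (SE 0.243, adjusted p = 4.96e-05). NIA1 and the second nitrite reductase gene (LOC_Os02g52730) changed by 1.01 and 1.12, and without section 2 replicate 1 by 0.58 and 0.75 (adjusted p = 0.27 and 0.203).

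Most genes that build the chloroplast were higher in section 2 by less than the size set for a call. Of 14 chlorophyll synthesis genes 4 rose, with a median change of 0.74, while 12 passed the adjusted p at any size and all 14 were higher in section 2. CHLH (LOC_Os03g20700), a subunit of magnesium chelatase, had 136, 144, 75.1 and 102 FPKM and then 380.4, 341, 228 and 272, a change of 1.43 (SE 0.247, adjusted p = 2.1e-05). CRD1 (LOC_Os01g17170), which closes the fifth ring of chlorophyll, changed by 1.16, and CAO1 (LOC_Os10g41780), which makes chlorophyll b, by 1.28. HEMA1 (LOC_Os10g35840), the first committed enzyme, changed by 1.04 and by 0.96 without section 2 replicate 1.

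The GLK and early plastid list had 1 gene of 10 that rose, beside 5.85% of all tested genes. SIG1 (LOC_Os08g06630), a sigma factor of the plastid RNA polymerase, had 24.2, 17.8, 16.6 and 14.8 FPKM and then 39.6, 40.2, 37.3 and 42.5, a change of 1.10 (SE 0.166, adjusted p = 2.2e-06), or 0.98 without replicate 4. GLK1 (LOC_Os06g24070), a transcription factor of chloroplast development, had 44.3, 32.9, 37.2 and 36.8 FPKM and then 73.0, 58.3, 56.7 and 63.1. It did not overlap between sections, and its change of 0.72 passed the adjusted p but not the size. Its relative GLK2 (LOC_Os01g13740) had 25.1, 16.5, 15.1 and 16.4 FPKM and then 19.6, 25.4, 19.8 and 19.0, with overlapping groups. The plastid ribosomal protein genes ASL1, ASL2 and WLP1 changed by 0.81, 0.79 and 0.67, each without overlap. V1, V2, RpoTp and SIG2A, which act in early plastids, changed by 0.40, -0.12, 0.32 and 0.65. All 9 carotenoid genes were higher in section 2 and passed the adjusted p, and DXS (LOC_Os05g33840), the entry enzyme of plastid isoprenoid synthesis, rose by 1.21. LCYB (LOC_Os02g09750), lycopene cyclase, rose by 1.00, at the size threshold, and changed by 0.84 without section 2 replicate 1. PSY2 (LOC_Os12g43130), a phytoene synthase, had the highest mean, and its change was 0.72.

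Of 13 tested sucrose genes 3 rose and 3 fell, beside 5.85% and 12.0% of all tested genes. SUS1 (LOC_Os03g28330), a sucrose synthase, which splits sucrose, had 616, 834, 729 and 1042 FPKM and then 49.4, 112, 148 and 168, a change of -2.85 (SE 0.314, adjusted p = 2.9e-09). CIN2 (LOC_Os04g33740), a cell wall invertase, had 12.9, 12.4, 10.9 and 14.9 FPKM and then 0, 0, 0 and 0.562, a change of -3.62 (SE 0.137, adjusted p = 2.02e-22). CIN2 passed the filter only through section 1, so its test and separation are given as a description. SUT1 (LOC_Os03g07480), a sucrose transporter, had 11.4, 16.2, 5.92 and 5.62 FPKM and then 32.6, 30.1, 33.1 and 31.1, a change of 1.72 (SE 0.264, adjusted p = 2.91e-06). The cytosolic fructose-1,6-bisphosphatase, cFBPase (LOC_Os01g64660), of sucrose synthesis, had 27.0, 20.9, 14.6 and 7.38 FPKM and then 82.7, 58.2, 35.2 and 47.2, a change of 1.69 (SE 0.289, adjusted p = 1.74e-05). None of these 4 overlapped. CIN1 (LOC_Os02g33110), another cell wall invertase, rose, from 27.8, 19.9, 8.39 and 16.2 FPKM to 37.6, 33.6, 35.3 and 43.4, also without overlap, a change of 1.12 that was 0.81 without section 1 replicate 3. SUS3, a second sucrose synthase, changed by -1.03 with overlapping groups, and lost its call without any 1 of section 1 replicates 2 and 4 and section 2 replicates 1 and 4, at -0.55 to -0.78.

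Of 15 starch genes 3 fell and none rose, beside 12.0% and 5.85% of all tested genes, with a median change of 0.06. AGPL1 (LOC_Os05g50380), a large subunit of ADP-glucose pyrophosphorylase, the first enzyme of starch synthesis, had 38.1, 34.0, 48.2 and 37.1 FPKM and then 2.88, 4.10, 4.87 and 4.09, a change of -3.02 (SE 0.324, adjusted p = 1.66e-09). AGPS2 (LOC_Os08g25734), a small subunit of the same enzyme with the highest mean of the list, had 117, 118, 106 and 82.5 FPKM and then 129, 123, 133 and 138, and its change of 0.31 did not pass the test. PHO1 (LOC_Os03g55090), a starch phosphorylase, fell from 8.28, 13.6, 9.28 and 10.1 FPKM to 3.19, 2.40, 2.45 and 6.85, a change of -1.33, which was not called with a pseudocount of 0.1 (adjusted p = 0.214). DPE1 (LOC_Os07g43390), a disproportionating enzyme, changed by -1.02, and lost its call without section 2 replicate 1 (-0.86) and in 8 other alternatives.

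In the brassinosteroid list 4 of 11 genes fell and none rose, beside 12.0% and 5.85% of all tested genes, and 2 fell without replicate 1. BRD2 (LOC_Os10g25780), a reductase of brassinosteroid synthesis, fell from 27.4, 21.4, 15.7 and 33.1 FPKM to 2.04, 3.89, 3.11 and 1.60, a change of -2.79 (SE 0.413, adjusted p = 1.46e-06) with no overlap. BU1 (LOC_Os06g12210), a small helix-loop-helix protein of the response to the hormone, had 16.8, 14.2, 5.91 and 21.4 FPKM and then 0, 0, 0 and 8.05, so replicate 4 of section 2 lay above replicate 3 of section 1. Its change was -3.05, and -3.84 without section 2 replicate 4. BZR1 (LOC_Os07g39220), the transcription factor of the pathway, changed by -1.27 (SE 0.421, adjusted p = 0.0213), and was not called without section 2 replicate 1 (adjusted p = 0.0636) and in 7 other alternatives. ILI1 (LOC_Os04g54900) was above 0 in replicates 1 and 2 of section 1 and in no other of the 8 libraries, and without either of those 2 libraries its change was smaller than 1.

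Of 11 gibberellin genes 2 rose and 2 fell, beside 5.85% and 12.0% of all tested genes. CPS1 (LOC_Os02g17780), the first enzyme of the pathway, rose from 3.68, 6.21, 3.65 and 3.49 FPKM to 10.4, 10.6, 9.07 and 10.8, a change of 1.12 (SE 0.309, adjusted p = 0.00525). GA2ox3 (LOC_Os01g55240), which inactivates the hormone, fell from 2.69, 3.55, 4.04 and 3.25 FPKM to 1.26, 1.03, 0.349 and 0, a change of -1.47 (SE 0.287, adjusted p = 0.000127). The section 2 mean of GA2ox3 was under 1 FPKM, so its test is given as a description. GA20ox1 (LOC_Os03g63970) and GA3ox2 (LOC_Os01g08220), which make active gibberellin, changed by 1.08 and -1.09. GA20ox1 fell below the size threshold without any 1 library of replicates 3 or 4, and GA3ox2 lost its call in 9 alternatives, with -0.98 (adjusted p = 0.0807) without section 2 replicate 1. Of 12 auxin and cytokinin genes 2 rose, beside 5.85% of all tested genes. LOG (LOC_Os01g40630), which activates cytokinin, had 14.5, 5.78, 3.74 and 2.05 FPKM and then 38.4, 23.5, 15.1 and 22.2, a change of 1.97 (SE 0.354, adjusted p = 3.64e-05). RR2 (LOC_Os02g35180), a type-A response regulator of cytokinin signalling, had 16.7, 14.8, 18.2 and 12.2 FPKM and then 57.5, 47.9, 38.8 and 38.8, a change of 1.5 (SE 0.216, adjusted p = 8.69e-07), and neither gene overlapped. None of the 9 jasmonate genes was called by limma and 1 had an unadjusted p under 0.05, while 2 rose with the replicate number as a block. Among these, a JAZ repressor gene (LOC_Os03g08330), with 54.8, 18.4, 6.03 and 6.16 FPKM and then 97.6, 40.7, 27.6 and 28.4, was higher in section 2 in 4 of 4 pairs and passed under the block (change 1.5, adjusted p = 0.0319, against 0.178 without it).

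None of the 8 tested clock genes was called by limma, beside 17.9% of all tested genes, and 3 had an unadjusted p under 0.05. LHY (LOC_Os08g06110), a morning factor of the clock, had 291, 331, 290.0 and 249.7 FPKM and then 485, 452, 508 and 381, a change of 0.65 (SE 0.143, adjusted p = 0.000582). PRR73 (LOC_Os03g17570) and ELF3-1 (LOC_Os06g05060) changed by 0.58 and 0.96, and these 3 passed the adjusted p without reaching the size and did not overlap. ELF3-1 reached it in 7 alternatives, at 1.19 under quantile normalization. PRR37, PRR95, PRR59, GI and ELF3-2 changed by -0.06, 0.54, 0.56, 0.62 and -0.20, with overlapping groups, and GI was 1.08 under quantile normalization. Of 6 light receptors the cryptochrome CRY1b (LOC_Os04g37920) rose by 1.01, or 0.88 without section 2 replicate 1.

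Along the rest of the leaf, the step from section 1 to section 2 held the most called genes of the 10 neighbouring steps, 3183 or 17.9% of those tested. The next largest were 693 from section 5 to 6, which is 4.24%, and 653 from section 2 to 3, which is 3.84%. These steps share libraries and are given side by side without a test. Of the genes that fell, 2016 or 94.1% had their highest mean of all 11 sections in section 1. The genes that rose were spread, with 219 or 21% highest in section 2, 151 in section 3 and 147 in section 7. The filter and the calls use the same values of sections 1 and 2, so these shares, here and below, are a description.

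**Figure D4:**
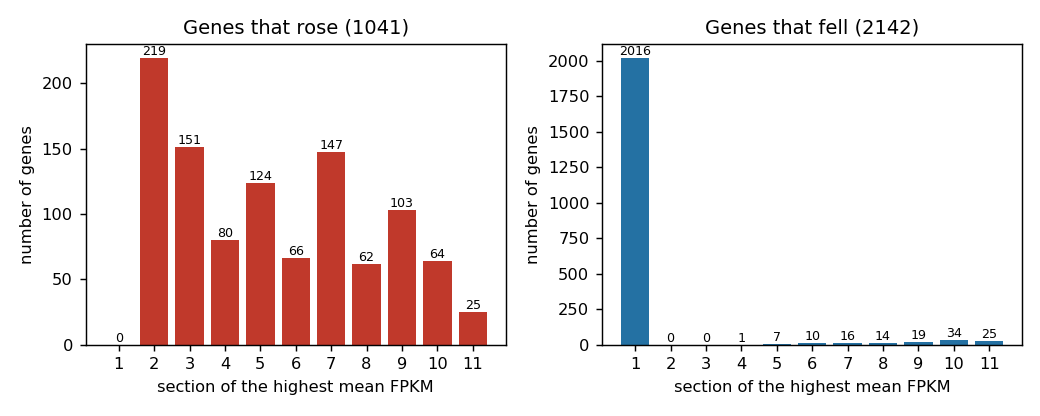
Section in which each called gene had its highest mean FPKM (horizontal axis, sections 1 to 11; bar height is the number of genes, from 0) for the 1041 genes that rose and the 2142 that fell between sections 1 and 2. Of those that fell 2016 were highest in section 1, while those that rose were spread over sections 2 to 11, with 219 in section 2.

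Among the called list members, 54 of the 55 that fell were highest in section 1, while 33 of the 79 that rose were highest in section 7 and 17 in section 9. HOS59 was highest in section 3, at 146 FPKM, and CATC and CA in section 9, at 2390 and 25140 FPKM. Only 6 list members that rose had their highest mean in section 2, namely CESA3, F5H, WSL4, GL1-1, GL1-6 and Lsi6. For the 3 wax genes among them the section 3 means were 85.0, 93.5 and 31.6 FPKM, in that order for WSL4, GL1-1 and GL1-6, and the changes from section 2 to 3 were -1.55, -1.70 and -2.81 (adjusted p = 0.0276, 0.0107 and 0.000183).

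**Figure D5:**
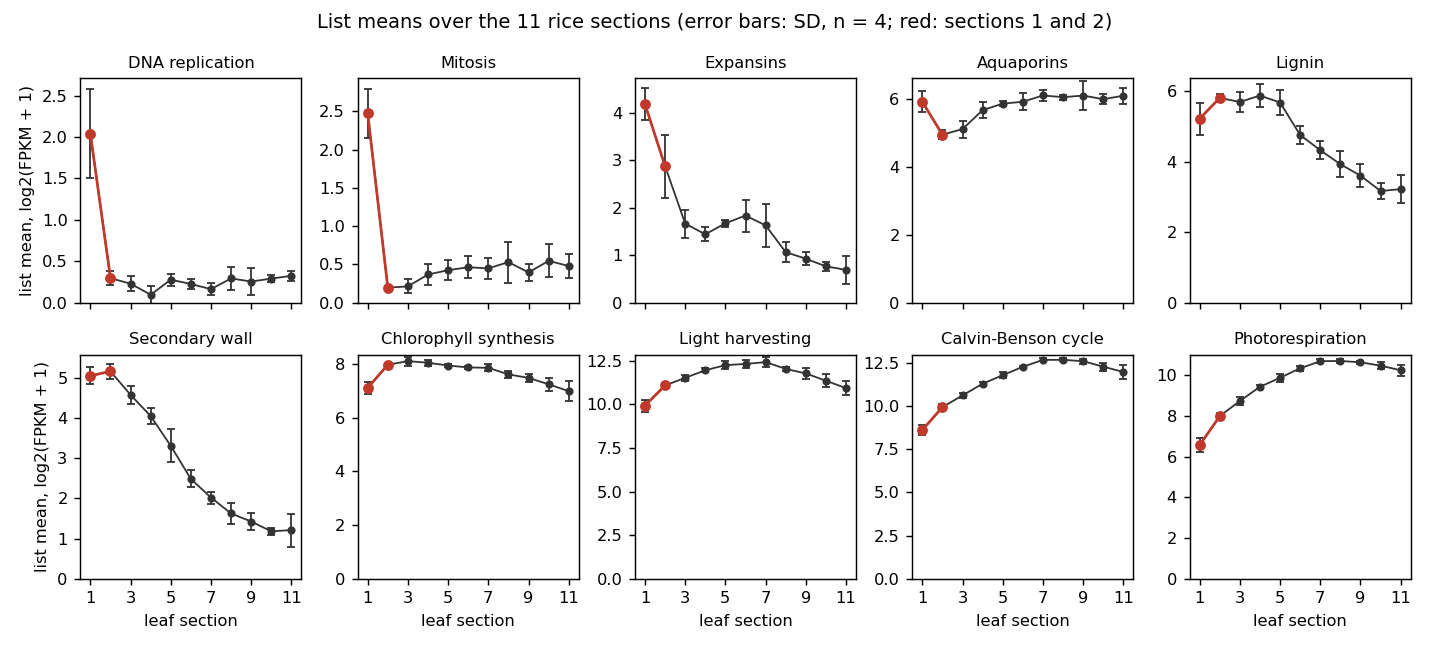
Mean of log2(FPKM + 1) over the tested members of 10 lists (vertical axes, from 0) in the 11 rice sections (horizontal axes), with error bars of 1 SD over 4 libraries and sections 1 and 2 in red. The DNA replication and mitosis lists are at 2.04 and 2.48 in section 1 and at 0.30 and 0.20 in section 2, and the Calvin-Benson and photorespiration lists go on from 9.93 and 8.00 in section 2 to 12.67 and 10.70 in section 7.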

How the data were processed

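Polyadenylated RNA from 44 rice libraries (11 sections, 4 replicates each) was used, and the 8 of sections 1 and 2 were compared. Strand-specific libraries were made from TRIzol extracts, per the labels' protocols. The authors deposited FPKM values, and TopHat2 2.0.10 and Cuffdiff 2.1.1 are named in the submitters' processing notes. Not given in the sources used here are the rice genome build and the handling of reads that similar genes share, so values of near-identical copies are uncertain. Of the 55986 features 22114 were at 0 in every rice library. FPKM holds no read totals, so no counting interval is given, and relative depth was read from the steps of genes with a mean FPKM under 0.3.

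Genes whose mean over the 8 libraries reached 1 FPKM were tested, after adding a pseudocount of 1 and taking log2, by limma 3.58.1 (R 4.3.3) with its variance trend. The fit used all 44 libraries and left 33 residual degrees of freedom. Replicates are pools of plants. The replicate number marks the pool whose leaves were cut into sections, per the labels' protocols, so the 44 libraries are not 44 separate pools. The p-values of the main fit measure the spread between libraries of the same section, shared over all sections. They leave out the pairing by pool, which the replicate block takes up as an alternative. Deviations from the section means of libraries with the same number correlated at 0.25, 0.092, 0.197 and 0.157 across genes, and those of other numbers at -0.191 to 0.048.

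The members, lists and named genes were chosen with earlier results of these data known. Named are all tested members of the GRF and GIF, KNOX, leaf patterning, stomata, early plastid, clock and silicon lists. For other lists the rule takes the 4 called genes with the largest change, the one with the highest mean and those called against the majority. WSL4, CIN1, SUS3, PsaG and PsbY were named after their values were seen. PsbS2, CDC6 and CYCA1;1 were also named outside the rule, and their values under the alternatives are not given. The result of 1 lignin gene that the rule takes is not reported here. Alternatives were pseudocounts, filters, scalings, the replicate block, the 8 libraries alone, no trend, and leaving out each replicate or library. Python 3.11.15 with pandas 2.3.3 and matplotlib 3.10.9 made the summaries and figures.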

Additional observations from a re-analysis of the deposited data

Results flagged for a closer look

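Within 1 section, the 4 libraries of 15 named genes held a value far from the other 3. In all, 274 groups of 4 libraries were examined and chance flags about 1 in 20. That rate does not hold for a group with 3 libraries at 0, where any other value above 0 is flagged. In section 2, MCM3 was at 0.216 FPKM in replicate 3, MCM4 at 0.212 in replicate 4, CDKB1;1 at 0.684 in replicate 1, GRF10 at 0.6 in replicate 3, CIN2 at 0.562 in replicate 4 and BU1 at 8.05 in replicate 4, each with the other 3 libraries at 0. NAL1 was at 12.6 in section 2 replicate 1, beside 11.1 to 11.4 in the others, and CRY1b at 20.3, beside 13.5 to 14.3. EXPB11 was low in that library, at 0.542 beside 6.15 to 8.56. GLK2 was at 25.4 in section 2 replicate 2, beside 19.0 to 19.8. CRD1 was at 1195 in section 2 replicate 4, beside 1455 to 1498, and GLYK at 80.2, beside 106 to 108. In section 1, PIP2;1 was at 841 in replicate 4, beside 632 to 637, CPS1 at 6.21 in replicate 2, beside 3.49 to 3.68, and LOC_Os01g47370 at 29.6 in replicate 1, with the other 3 at 0.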

How the results depend on the processing

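Under 23 alternatives no named gene reversed its direction past the threshold, and 110 of the 138 that the rule took kept their side of it in each alternative that tested them. WSL4, CIN1 and SUS3, named outside the rule, each lost the call in at least 1. Leaving out a replicate or a library gave 808 to 1270 genes that rose and 1838 to 2289 that fell. With the replicate number as a block, 1099 rose and 2206 fell in 44 libraries, and 1119 and 2215 in the 8 alone; among named genes the block in 44 libraries changed the call of JAZ only. Against the 8 libraries without it, the block changed the calls of JAZ, LG1, GA3ox2, NIA1, 1 nitrite reductase gene (LOC_Os02g52730) and WSL4. Quantile normalization raised the number that rose to 1647. A filter at a mean of 5 FPKM left 10806 genes, so fewer could be called, and 1331 fell, 29 of them in the lists, in place of 2142 and 55. The pseudocount of 0.1 kept 74.8% of the calls, and the cause was not tested. A value under 1 FPKM rests on few fragments, and whether a gene listed at 0 is absent cannot be read from FPKM.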

Other observations

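ACT1 (LOC_Os03g50885), an actin gene often used as a reference for rice expression, had 294, 334, 297 and 454 FPKM in section 1 and 66.0, 93.4, 114 and 110.0 in section 2, a change of -1.84 (SE 0.197, adjusted p = 1.56e-09) that was lower in 4 of 4 pairs with no overlap. All 3 genes of that list were lower in section 2, and ACT1 alone fell, the other 2 having adjusted p = 0.096 and 0.234, while 2 of the 3 fell under quantile normalization. The 3 together made up 0.133% ± 0.0230 of the FPKM sum in section 1 and 0.0492% ± 0.0105 in section 2 (SD, n = 4).

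The lists of heat shock, iron and chlorophyll breakdown genes had 9, 4 and 6 tested members. Over all tested genes 17.9% were called either way and 12.0% fell. Of 9 heat shock genes only HSP90-1 (LOC_Os04g01740), a chaperone, fell, from 9.48, 6.30, 5.78 and 11.4 FPKM to 3.28, 2.23, 3.40 and 1.19, a change of -1.40 (SE 0.481, adjusted p = 0.0259), and its call was lost in 8 alternatives, such as without replicate 4 (adjusted p = 0.237). None of the 4 tested iron genes or 6 chlorophyll breakdown genes was called by limma, 2 and 1 of them having an unadjusted p under 0.05. Under quantile normalization, or without replicate 3, 1 iron gene rose. FER2 (LOC_Os12g01530), a ferritin, which stores iron, had 13.3, 11.2, 9.94 and 12.6 FPKM and then 41.3, 15.1, 15.1 and 22.8. NYC1 (LOC_Os01g12710), a chlorophyll b reductase, had 21, 27.6, 22.2 and 21.7 FPKM and then 50.2, 36.2, 41.4 and 37.1, and its change of 0.80 passed the adjusted p but not the size.

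Outside the lists, 962 tested genes rose and 2087 fell. The identifiers that rose most, among those averaging 5 FPKM or more and moving alike in all pairs, were LOC_Os04g32850 and LOC_Os01g47370. LOC_Os04g32850 had 4.5, 2.37, 0.431 and 0 FPKM in section 1 and 145, 45.8, 12.3 and 32.8 in section 2, a change of 4.21 (SE 0.465, adjusted p = 3.19e-09), or 3.61 without section 2 replicate 1, and its mean was highest in section 4, at 472. LOC_Os01g47370 had 29.6, 0, 0 and 0 FPKM and then 81.0, 19.8, 33.7 and 14.2, a change of 3.71, or 4.94 without section 1 replicate 1. Those that fell most were LOC_Os10g05950, from 107, 134, 222 and 251 FPKM to 0, 1.35, 0.691 and 0, and LOC_Os07g37850, from 176, 265, 277 and 409 to 1.17, 2.87, 0 and 4.10, changes of -6.91 and -6.73. Both stayed under 1 FPKM on average in each of sections 3 to 11.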
